A study of Mus musculus with 12 samples.

Results

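The stretch of mouse chromosome 6 around Slc6a6, the gene of the taurine transporter TauT that is disrupted in TauTKO mice, was examined in skeletal muscle. Its members were all array probes, other than those of Slc6a6 itself and control spots, placed by the array design between 81700000 and 101700000 of chromosome 6 (build mm9), which is 10 Mb on either side of the Slc6a6 probe. There were 546 such probes with 311 gene or transcript names, out of 55681 probes with 34821 names on the array. No measured value was used to choose them. A probe was tested where some group had it well above background in each of its 3 mice, which held for 389 of the 546 (240 names) and failed for 157.

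RNA came from the tibial anterior muscle of male C57BL6 mice, from 12 mice, 3 of each genotype (WT or TauTKO) at each age (young or old). The labels give an age of 3 months for young and 18 months for old mice. WT and TauTKO mice were littermates from crosses of heterozygous parents on a C57BL/6 background, and the labels give no treatment. Nothing in the sources used here names the stem cell strain in which the allele was made or the number of backcrosses. Each mouse was measured on 1 one-colour array with probes of 60 bases. A level is the log2 of the background-corrected intensity minus that of the 75th percentile of its array, and a difference is TauTKO minus WT on this log2 scale. The share of probes well above background ranged from 65.4% to 74.3% between arrays. All 6 skeletal muscle fibre markers were well above background, with Acta1 at levels from 9.92 to 10.49. One slide carries the young mice of both genotypes and another the old ones, so that a difference between ages cannot be told apart from one between slides. On both slides TauTKO mice lay in row 1 at columns 1 and 3 and in row 2 at column 2. WT mice lay in row 1 at column 2 and in row 2 at columns 1 and 3. A genotype difference, also one at both ages, therefore cannot be told apart from one between these positions. Old TauTKO replicate 1 stood apart: its median correlation with the other 11 arrays was 0.971, against 0.978 to 0.986 for the others, and its summed slow fibre markers were at 218 times the array's 75th percentile, against 10.2 and 16.6 in the other old TauTKO mice. That sum was 98.5 to 205 in young WT, 23.7 to 42.2 in young TauTKO and 53.7 to 121 in old WT mice. Myl3, a slow fibre myosin light chain with the highest level of the slow fibre markers in WT mice, had a mean difference of -3.96 (adjusted p = 0.0097). The other slow fibre markers went the other way without passing: Myh7 had 1.28, Myl2 0.50, Tnnc1 0.63, Tnni1 0.56 and Tnnt1 0.86. The sum thus mainly follows Myl3 in WT mice. The muscle creatine kinase Ckm had a mean difference of -0.36 (adjusted p = 0.0128). The part of these fibre markers in the members' differences was not tested.

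Genes that lie close to each other on a chromosome are inherited together, so an allele made by gene targeting in stem cells carries its neighbours along through later breeding. DNA of the stem cell strain is replaced by that of the recipient strain first on other chromosomes and last beside the targeted gene. Where the strains differ in a neighbour's regulatory sequence or in its transcript, WT and knockout littermates can differ in that neighbour at every age. The comparison therefore asked whether genotype differences present at both ages were more frequent around Slc6a6 than in windows of equal size elsewhere. DNA sequence was not measured, and the strain of origin of this stretch was not tested.

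Sequences of some member probes are given here 5′ to 3′ in lower case as the array files hold them, in the sense of the transcript. The first set is shown because 6 reverse-strand probes at the locus of 1 noncoding transcript, 2610306M01Rik, all gave lower values in TauTKO mice. The array gives that name to 1 of the 6 and names the other 5, the printed ones included, only by a reverse-strand transcript's position there. The 3 printed ones share no base with any other probe of the set. Each of the remaining 3 shares bases with another of them, so they are not all separate measurements and are not described singly here.

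A_30_P01020771, chr6:86798607-86798666: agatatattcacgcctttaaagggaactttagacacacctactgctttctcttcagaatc

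A_30_P01018002, chr6:86798721-86798780: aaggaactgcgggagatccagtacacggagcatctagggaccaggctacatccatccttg

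A_30_P01025916, chr6:86799052-86799111: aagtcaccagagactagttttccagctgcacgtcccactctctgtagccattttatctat

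The second set gives the first 30 bases of the single Fbln2 probe and of probes of Nup210, Zxdc and Kbtbd12, because probes of the last 3 genes, which lie at different positions of a gene, differed in the size or the direction of their genotype difference. Fbln2 and Zxdc lie on the forward strand, Nup210 and Kbtbd12 on the reverse strand.

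Fbln2, A_52_P590535, chr6:91222118-91222177: ctcaactatggctacagctgacattccatt

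Nup210, A_55_P2092696, chr6:91035854-91035913: ctgctggtgggaacctccattcactacaag

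Nup210, A_55_P2092661, chr6:90963064-90963123: ccgagagctgttaatggagtcttccctgca

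Zxdc, A_52_P494372, chr6:90352772-90352831: aagtcatctttctaaattctgtttctggaa

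Zxdc, A_55_P2010111, chr6:90332399-90332458: tccaggggcagaaagaaagccatgggccat

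Kbtbd12, A_55_P2091116, chr6:88563905-88563964: ttccactgcagctggcttgtcatgctgtgg

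Kbtbd12, A_55_P2091120, chr6:88563762-88563821: gtagtaaagatgatggctgacattttgaca

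Slc6a6 was checked first. Its probe, A_52_P339996 at chr6:91708620-91708679, read 2.62, 2.16 and 2.38 in young WT and 3.48, 3.12 and 2.92 in young TauTKO mice. In old mice it read 2.48, 2.84 and 2.48 in WT and 3.72, 3.47 and 3.18 in TauTKO mice. The signal was thus higher, not lower, on every array labelled TauTKO than on every array labelled WT of the same age, with a mean genotype difference of 0.82 ± 0.14 (SE, limma adjusted p = 0.0049). Where the probe lies relative to the disrupted part of the gene is not given in the sources used here. The probe therefore does not check the labels, from which each genotype direction given here is taken.

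Few members differed strongly between the genotypes, and the called ones lay on the side of the chromosome start, which holds 288 of the 389 tested probes. A probe was called at a limma adjusted p under 0.05, with Benjamini-Hochberg adjustment over all 38973 tested probes, and a change of at least 1.8-fold. In old mice 7 members (1.8%) were called, 3 higher and 4 lower in TauTKO mice, where 2.08% of all tested probes were called, 1.4% higher and 0.688% lower. In young mice 2 members (0.514%) were called, against 0.375% of all probes, 0.195% higher and 0.18% lower. The same 2 were called at both ages in 1 direction: fibulin 2 (Fbln2), an extracellular matrix glycoprotein, was higher and the nucleoporin Nup210, a transmembrane protein of the nuclear pore, was lower in TauTKO mice (2 of 389, 0.514%, against 0.254% of all probes, 0.136% higher and 0.118% lower). The 5 others called in old mice were Mthfd2 and Anxa4, both higher, and Zxdc and 2 probes at the 2610306M01Rik locus that the array names only by position, all lower.

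The share of members that agreed between the ages was close to that over the whole array. The mean genotype difference, the average of the young and the old difference, passed an adjusted p under 0.05 for 42 members with 33 names (10.8%), 20 higher and 22 lower, against 10.9% of all tested probes, 5.65% higher and 5.26% lower. The mean difference also reached 1.8-fold in 3 members (0.771%), with Mthfd2 and Fbln2 higher and Nup210 lower, against 1.54% of all probes, 0.998% higher and 0.547% lower. With the added condition of at least 1.8-fold in the same direction at each age, 2 members (0.514%) were left, Fbln2 and Nup210, against 0.762% of all probes, 0.477% higher and 0.285% lower. For 38 members (9.77%), 19 in each direction, every TauTKO array lay on the same side of every WT array of its age at both ages, against 10.4% of all probes, 4.99% higher and 5.45% lower. The young and the old difference had the same sign in 66.1% of the members and in 67.4% of all tested probes. A difference between the ages in the genotype effect passed an adjusted p under 0.05 for 0 members and 0 of all probes, and an unadjusted p under 0.05 for 17 members (4.37%), with the old difference above the young one in 7 and below it in 10, against 5.43% of all probes, 2.49% above and 2.94% below.

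At 1.5-fold, 7 members (1.8%) were called at both ages, against 0.523% of all probes. Of the 7, 4 were probes of the single 2610306M01Rik locus, and the others were Fbln2, Nup210 and Zxdc. With 1 probe per gene at 1.8-fold, 1 of 240 members (0.417%), Fbln2, was called at both ages, against 0.304%. The calls in young mice turned on single arrays, over all probes as well as among the members. The members called at both ages were 0 without young WT replicate 1 or 3 or young TauTKO replicate 2 or 3. In the same order, the share of all probes fell from 0.254% to 0.018%, 0.0564%, 0.0488% and 0.113%. Without young WT replicate 2, 1 member (Nup210) was left, against 0.139% of all probes. Without old TauTKO replicate 2 the count called in old mice rose to 11 (2.83%), against 2.4% of all probes. Without the array that stood apart, old TauTKO replicate 1, the counts were again 7 in old mice, 2 in young mice and 2 at both ages. The shares of all probes were then 1.63%, 0.493% and 0.336%.

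**Figure D1:**
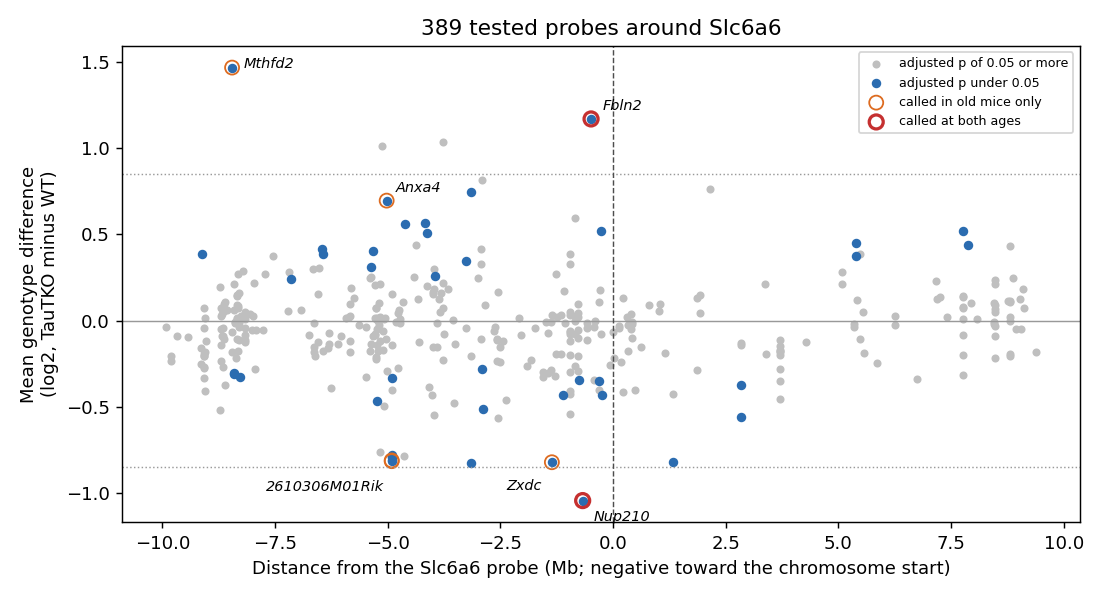
Mean genotype difference (log2, TauTKO minus WT) of each of the 389 tested probes against its distance from the Slc6a6 probe in Mb, with negative distances toward the chromosome start. Blue points passed an adjusted p under 0.05, orange rings mark probes called in old mice only, red rings the 2 called at both ages, and dotted lines mark 1.8-fold; all ringed probes lie at negative distances, where 288 of the 389 probes lie.

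Among windows of 20 Mb elsewhere in the genome, the stretch lay near the middle by the mean difference and by agreement. By probes called at both ages it lay above their upper quartile. In the 136 other windows of 20 Mb with at least 50 tested probes each, the share of probes with a mean genotype difference at an adjusted p under 0.05 ran from 3.68% to 22% with a median of 10.6%, and 65 of the windows exceeded the 10.8% around Slc6a6. For agreement of at least 1.8-fold at each age, the median window held 0.624% and the highest 3.89%, and 81 windows exceeded the 0.514% around Slc6a6. For probes called at both ages, 18 windows exceeded 0.514%, the upper quartile of the windows was 0.374%, and 76 windows held none. That share around Slc6a6 rests on 2 probes. With 1 probe per gene it was 0.417%, where the upper quartile was also 0.417% and 33 of 133 windows exceeded it. The order moved with the size of the window: within 5 Mb of Slc6a6, 26 of 181 tested probes (14.4%) passed for the mean difference, and 46 of 233 windows of 10 Mb exceeded that share, with a median of 10.7% and an upper quartile of 13.6%. For agreement the share within 5 Mb was 1.1%, which 59 of the 233 windows exceeded, with a median of 0.543% and an upper quartile of 1.13%. For probes called at both ages it was also 1.1%, which 16 windows exceeded, with an upper quartile of 0.364%. Both of these shares rest on 2 probes.

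**Figure D2:**
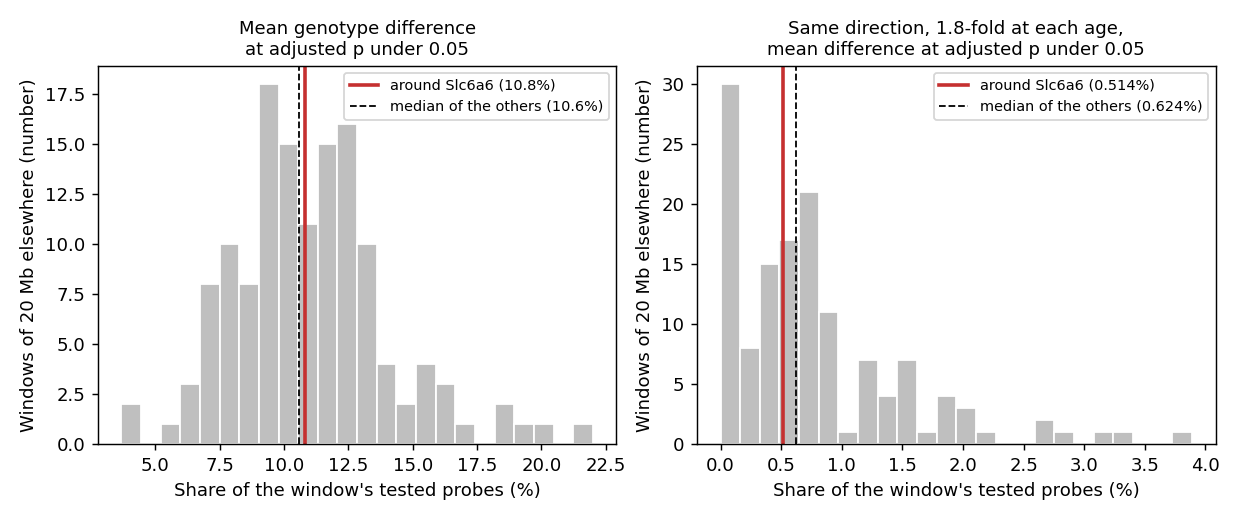
Number of 20 Mb windows elsewhere in the genome (136 windows, grey bars) by the percentage of their tested probes that passed for the mean genotype difference (left) or agreed at both ages with at least 1.8-fold (right). Red lines mark the stretch around Slc6a6 (10.8% and 0.514%) and dashed lines the median of the other windows (10.6% and 0.624%).

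Within the stretch, the share of passing probes did not fall steadily with distance from Slc6a6. It was 10% (9 of 90) within 2 Mb on either side, 18.7% (17 of 91) from 2 to 5 Mb and 7.69% (16 of 208) from 5 to 10 Mb. Over all tested probes it was 10.9%. The 2610306M01Rik locus alone gave 6 of the 17 passing probes from 2 to 5 Mb. Both members called at both ages, Fbln2 and Nup210, lay within 2 Mb, 2 of 90 probes (2.22%) against 0.254% of all probes. The size of the mean difference had a Spearman rho of -0.115 with distance over the 389 probes, which share arrays and in part genes. Toward the chromosome start 35 of 288 probes (12.2%) passed, and away from it 7 of 101 (6.93%). Right beside the gene, 6 of 42 probes (14.3%) passed within 1 Mb on the side of the chromosome start and 0 of 18 within 1 Mb on the other side. These bins hold few probes, and the share over all tested probes was 10.9%.

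Fbln2, at -0.487 Mb, was the nearest member called at both ages. It is a secreted glycoprotein that binds other matrix proteins and is made by fibroblasts and vessel walls. Its level was 3.15, 3.17 and 3.21 in young WT and 4.11, 4.35 and 4.28 in young TauTKO mice. In old mice it was 2.67, 3.10 and 2.67 in WT and 4.39, 3.84 and 4.02 in TauTKO mice. All 6 TauTKO arrays thus lay above all 6 WT arrays, without overlap at either age. The difference was 1.07 in young mice (adjusted p = 0.0191) and 1.27 in old mice (adjusted p = 0.00231), a mean difference of 1.17 ± 0.11 (SE, adjusted p = 0.000388), and without old TauTKO replicate 1 the mean difference was 1.09 (adjusted p = 0.000555). The young difference kept its size but had an adjusted p between 0.0559 and 0.0968 without any 1 of young WT replicates 1, 2 and 3 and young TauTKO replicates 2 and 3.

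Markers of fibroblasts and macrophages, all but Dcn, also rose by the mean difference, but none passed in young mice alone. Of the 3 fibroblast markers, Col1a1 and Col3a1, the main fibrillar collagens, rose with mean differences of 0.79 (adjusted p = 0.00178) and 0.86 (adjusted p = 0.00482), and Dcn had 0.24 (adjusted p = 0.112). Their summed level, in multiples of the array's 75th percentile, was 252 to 261 in young WT, 292 to 369 in young TauTKO, 120 to 129 in old WT and 166 to 193 in old TauTKO mice. All 3 macrophage markers rose, with mean differences of 0.61 for Cd68, 0.67 for Emr1 and 0.40 for Csf1r, and their summed level was 11.3 to 12.1, 12.2 to 14.7, 7.78 to 9.84 and 13.4 to 14.6 in the same order of groups. The young differences were 0.69 for Col1a1, 0.84 for Col3a1, 0.01 for Dcn, 0.41 for Cd68, 0.19 for Emr1 and 0.20 for Csf1r. The part of these markers in the Fbln2 difference was not tested, and in whole muscle more cells of a type and more RNA per cell cannot be told apart.

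Nup210, at -0.673 Mb, was the other member called at both ages, and it was lower in TauTKO mice. The probe A_55_P2092696 read -2.37, -2.51 and -2.38 in young WT and -3.20, -3.19 and -3.59 in young TauTKO mice. In old mice it read -2.10, -2.30 and -2.10 in WT and -3.41, -3.20 and -3.43 in TauTKO mice. The groups did not overlap at either age. The difference was -0.91 in young mice (adjusted p = 0.0161) and -1.18 in old mice (adjusted p = 0.00136), a mean difference of -1.04 ± 0.09 (SE, adjusted p = 0.00025). The second Nup210 probe, which lies 72790 bases away in the same gene, was also lower on every TauTKO array than on every WT array of its age, but by only -0.34 ± 0.06 (SE, adjusted p = 0.00628). The size of the Nup210 difference thus depended on the probe. After normexp background correction the first probe had a mean difference of -0.60, still past the adjusted threshold, and was not called at either age, and without young TauTKO replicate 3 its young difference was -0.77, under 1.8-fold. The young difference had an adjusted p of up to 0.0872 without young WT replicate 1 or 3 or young TauTKO replicate 2, where it did not pass.

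**Figure D3:**
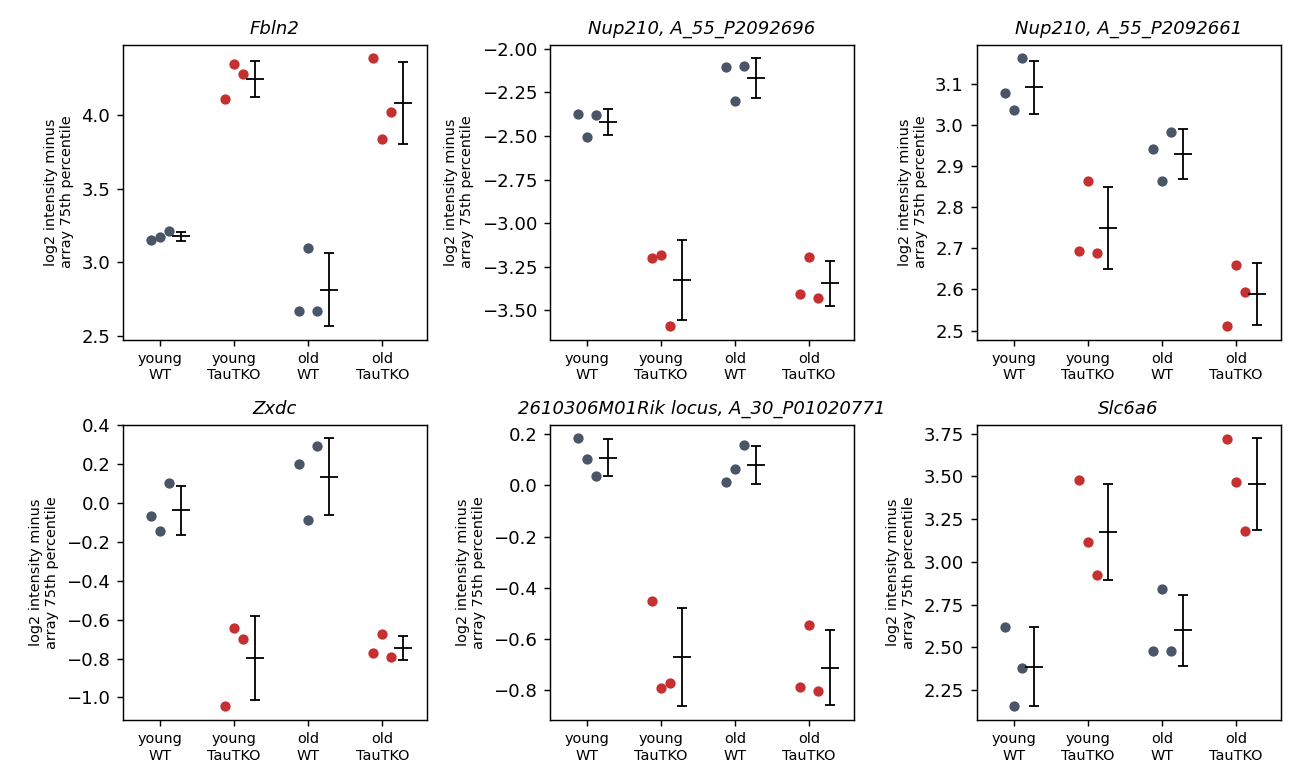
Level on each of the 12 arrays (log2 intensity minus the array's 75th percentile) of 5 member probes (both Nup210 probes among them) and Slc6a6, with dots for single mice (grey WT, red TauTKO) and the mean ± SD of 3 mice per group beside them; the vertical axes do not start at 0. In each panel the TauTKO and WT mice of an age do not overlap; Fbln2 and Slc6a6 are higher in TauTKO mice and the others lower.

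2610306M01Rik, at -4.91 Mb, was the locus with the most member probes that passed in 1 direction. It is annotated by RefSeq as a long noncoding RNA. The probe A_30_P01020771 read 0.19, 0.11 and 0.04 in young WT and -0.45, -0.79 and -0.77 in young TauTKO mice. In old mice it read 0.02, 0.07 and 0.16 in WT and -0.79, -0.55 and -0.81 in TauTKO mice. Every TauTKO array lay below every WT array, and the difference was close in size at both ages, -0.78 in young (adjusted p = 0.0191) and -0.79 in old mice (adjusted p = 0.00477).

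Over a span of 666 bases, all 6 reverse-strand probes of this locus passed, with TauTKO and WT arrays apart at both ages. The mean difference was -0.79 ± 0.08 (SE, adjusted p = 0.000563) for A_30_P01020771 and -0.81 ± 0.11 (SE, adjusted p = 0.00168) for A_30_P01018002. A_30_P01025916, which lies nearest the 5′ end of the transcript among the 6, had -0.33 ± 0.06 (SE, adjusted p = 0.0066). Of 7 probes for the opposite strand at this locus, 4 were not well above background in all mice of any group, and the mean differences of the other 3 ran from -0.40 to 0.15 with 0 passing. Leaving out each array in turn kept the mean difference of A_30_P01020771 between -0.84 and -0.76, with a highest adjusted p of 0.00268.

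**Figure D4:**
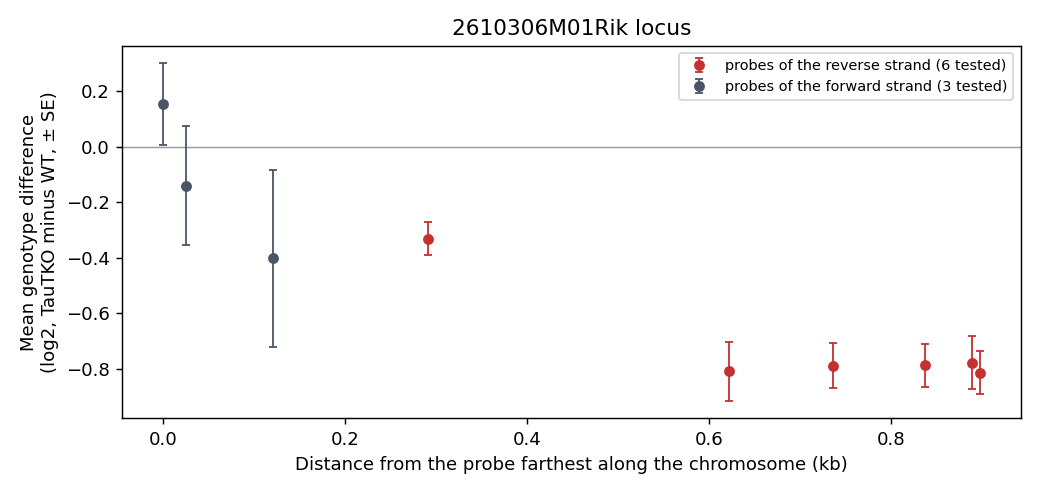
Mean genotype difference ± SE (log2, TauTKO minus WT, 12 arrays) of the 9 tested probes of the 2610306M01Rik locus against their distance in kb from the probe farthest along the chromosome, so that the reverse-strand transcript runs from left to right. The 6 reverse-strand probes (red) lie below 0, 5 of them at about -0.8, and the 3 forward-strand probes (grey) lie between -0.40 and 0.15.

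Zxdc, at -1.36 Mb, encodes a zinc finger protein that takes part in transcription of class II histocompatibility genes. The probe A_52_P494372 read -0.07, -0.15 and 0.10 in young WT, -1.05, -0.64 and -0.70 in young TauTKO, 0.20, -0.09 and 0.29 in old WT and -0.77, -0.67 and -0.79 in old TauTKO mice. The groups were apart at both ages, with differences of -0.76 (adjusted p = 0.0368) and -0.88 (adjusted p = 0.00589). The other Zxdc probes did not pass, with mean differences of -0.28 (adjusted p = 0.155) and -0.01 (adjusted p = 0.98). The young difference did not pass in 9 of the 12 fits that left out 1 array, with an adjusted p of up to 0.146, and passed without old WT replicate 2 or 3 or old TauTKO replicate 1.

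Kbtbd12, at -3.15 Mb, which encodes a kelch and BTB domain protein and was chosen after its values were seen, had probes that moved in opposite directions although they lie 143 bases apart. A_55_P2091116 read -0.57, -0.17 and -0.13 in young WT, -1.13, -0.84 and -1.41 in young TauTKO, -0.23, -0.95 and -0.16 in old WT and -1.39, -1.29 and -1.09 in old TauTKO mice. A_55_P2091120 read -3.22, -3.93 and -3.56, then -2.90, -3.16 and -2.97, then -4.03, -3.01 and -3.31, and then -2.50, -2.85 and -2.21 in the same groups. Both probes had groups apart at both ages, the first with a mean difference of -0.82 (adjusted p = 0.0104) and the second with 0.75 (adjusted p = 0.0337), and a further Kbtbd12 probe had -0.21 (adjusted p = 0.133). The second one did not pass in 9 of the 12 fits that left out 1 array, where its adjusted p reached 0.0724, and passed without young WT replicate 1, old WT replicate 2 or old TauTKO replicate 2. Over 23 alternative settings, those 12 among them, the second probe did not pass in 13. Its mean difference there ran from 0.26 to 0.855. Kbtbd12 was the only 1 of 87 member genes with at least 2 tested probes that passed in both directions, against 6 of 7876 such genes on the whole array.

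Among genes with a passing probe, agreement of all tested probes was the exception, for the members as over the whole array. Of the 87 genes, 15 had at least 1 passing probe, and in 5 of these 15 (33.3%) all tested probes passed in 1 direction, against 22.7% over the array. The 5 were Nup210, the reverse-strand transcript at 2610306M01Rik, Slc25a26, Bola3 and Tmf1. Slc25a26, the mitochondrial carrier of S-adenosylmethionine at 2.84 Mb, fell by 0.56 (adjusted p = 0.0126) and 0.37 (adjusted p = 0.0191) by its 2 probes. Bola3, which helps insert iron-sulfur clusters into mitochondrial enzymes, fell by 0.31 and 0.30 (adjusted p = 0.0375 and 0.0446). Tmf1, a Golgi protein, rose by 0.45 and 0.37 (adjusted p = 0.00676 and 0.0202).

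Of 54 names with a tested probe within 2 Mb, 7 (13%) passed for the mean difference by the probe with the highest mean level, near the 10.9% of all probes and the median of 11.2% over other windows with 1 probe per gene. Besides Fbln2, Nup210 and Zxdc these were Tmem43, Lsm3, Slc41a3 and 1810044D09Rik. Tmem43, an inner nuclear membrane protein, rose by 0.52 ± 0.07 (SE, adjusted p = 0.00231), from 1.26 to 1.38 in young WT to 1.66 to 1.85 in young TauTKO and from 1.23 to 1.36 in old WT to 1.71 to 2.06 in old TauTKO mice. Lsm3, a subunit of the ring that binds U6 RNA in splicing, fell by 0.43 (adjusted p = 0.0141). The magnesium transporter Slc41a3 fell by 0.43 (adjusted p = 0.0163), and 1810044D09Rik had -0.35 at the edge of the threshold (adjusted p = 0.0496), which 10 of 12 fits without 1 array took away. With arrays scaled to their median in place of the 75th percentile, Lsm3 had -0.36 (adjusted p = 0.0713) and the second Nup210 probe -0.28 (adjusted p = 0.0519).

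The names within 2 Mb that did not pass had mean differences between -0.42 and 0.18. Grip2, a scaffold of glutamate receptors whose probe is the nearest of all, had -0.06. The DNA repair factor Xpc had -0.08, the deacetylase Hdac11 -0.04, the nuclear receptor Nr2c2 0.04, the mitochondrial import factor Chchd4 0.18 and the mitochondrial ribosome subunit Mrps25 -0.10. The vomeronasal receptor genes of this neighbourhood, Vmn1r42, Vmn1r45, Vmn1r48, Vmn1r52 and Vmn1r54, which serve in pheromone sensing, had -0.26, -0.23, -0.04, -0.30 and -0.01. One further probe in this range, for the forward strand of a transcript at 1.32 Mb, passed with -0.82 (adjusted p = 0.0368), but it was well above background on only 2 of the 3 young TauTKO arrays, and the transcript's other probe had -0.42 (adjusted p = 0.114).

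Mthfd2, at -8.45 Mb, had the largest difference of all members, in old mice. It is the mitochondrial folate enzyme that makes one-carbon units, low in most adult tissues. Its level was -1.19, -1.16 and -1.25 in young WT and -0.89, -0.61 and -1.01 in young TauTKO mice. In old mice it was -1.49, -0.90 and -1.46 in WT and 1.55, 0.40 and 1.92 in TauTKO mice, so the 3 old TauTKO mice stood above all others. The difference was 2.57 ± 0.33 (SE, adjusted p = 0.00278) in old and 0.37 (adjusted p = 0.743) in young mice. The difference between these 2 values had an unadjusted p of 0.0008 and an adjusted p of 0.538 (limma), the smallest among the members but not past the threshold. Without old TauTKO replicate 1 the old difference was 2.44 (adjusted p = 0.0115).

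Anxa4, at -5.02 Mb, which was also chosen after its values were seen, encodes a calcium-dependent phospholipid-binding protein. A_55_P2092859 read 0.90, 0.63 and 0.83 in young WT, 1.37, 1.32 and 1.18 in young TauTKO, 0.60, 0.81 and 0.52 in old WT and 1.91, 1.20 and 1.49 in old TauTKO mice. The difference was 0.89 (adjusted p = 0.0135) in old mice, where the highest value was that of old TauTKO replicate 1, and without that array it was 0.70 (adjusted p = 0.0246), under 1.8-fold. Without old WT replicate 1 or 3 it was 0.87 and 0.83 with adjusted p of 0.0563 and 0.0618. The other Anxa4 probe was well above background on only 2 of 3 arrays in 2 groups and had -0.82 (adjusted p = 0.299) in old mice.

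**Figure D5:**
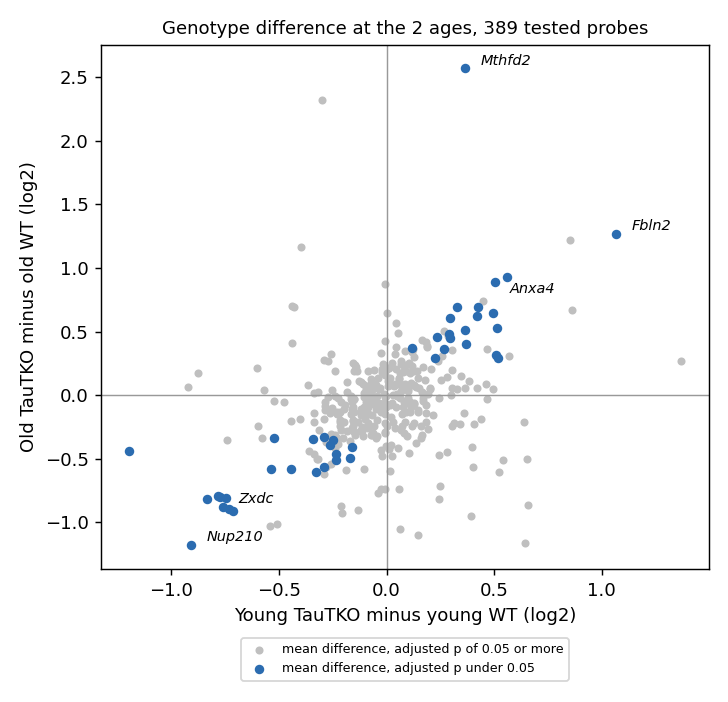
Genotype difference in old mice against that in young mice (log2, TauTKO minus WT) for the 389 tested probes, with blue points where the mean of both passed an adjusted p under 0.05. Fbln2 (1.07 and 1.27) and Nup210 (-0.91 and -1.18) lie far from 0 at both ages, and Mthfd2 (0.37 and 2.57) in old mice.

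Grouped by what their products do, the genes of the vesicle and matrix lists that passed were all higher in TauTKO mice, while the mitochondrial and nuclear lists held passing genes in both directions. The lists hold genes chosen by position and function with earlier results of these data known, so they cannot test a shared function. Each gene is given by its highest-level probe, and for some genes another probe differed in whether it passed. The background is the 10.9% of all probes that passed for the mean difference, 5.65% higher and 5.26% lower. Among the third of all probes with the highest levels, 16.8% passed. Of 9 tested genes of muscle structure and fuel use, 1 passed, Tmem43. The membrane repair protein dysferlin (Dysf) had 0.38 (adjusted p = 0.0654), the glucocorticoid-regulated factor Klf15 -0.32 (adjusted p = 0.0619), the actin filament nucleator Lmod3 -0.11, hexokinase 2 (Hk2) -0.12, the smooth muscle actin Actg2 0.03, Mitf -0.02 and Foxp1 0.23 (adjusted p = 0.0911). Klf15 was apart in young mice, at 1.45 to 1.49 in WT and 1.00 to 1.05 in TauTKO mice, but overlapped in old mice, at 0.93 to 1.32 and 0.71 to 1.23. The median mean difference of these 9 genes was 0.03, against -0.06 over all tested probes.

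Of 19 tested genes of mitochondria and metabolism, 1 rose, Mthfd2, and 3 fell, Slc25a26, Bola3 and Dguok, the mitochondrial deoxyguanosine kinase, at -0.33 (adjusted p = 0.0477). Their median was -0.05. Sfxn5 of this list had -0.13 (adjusted p = 0.594) by the probe used here, but 1 of its 4 tested probes passed as higher. Of 14 tested genes of the vesicle and secretory pathway, 5 rose and 0 fell, with a median of 0.16. These were Anxa4, Tmf1, Rab11fip5, an effector of recycling endosomes, at 0.38 (adjusted p = 0.0385), Sec61a1, the channel of the endoplasmic reticulum, at 0.34 (adjusted p = 0.0327), and the exocyst subunit Exoc6b at 0.24 (adjusted p = 0.0463). Only 1 of the 3 tested Exoc6b probes passed, and the lowest had -0.08. The 9 others of this list ran from -0.08 for Rab7 to 0.39 for Arl6ip5 (adjusted p = 0.138).

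Of 9 tested genes of the matrix and secreted proteins, 2 rose and 0 fell, with a median of 0.13. Beside Fbln2 this was Antxr1, a cell surface receptor for collagen, which was at 0.85 to 1.01 in young WT, 1.14 to 1.52 in young TauTKO, -0.37 to -0.19 in old WT and 0.14 to 0.69 in old TauTKO mice, a mean difference of 0.56 ± 0.10 (SE, adjusted p = 0.00789). The fibroblast markers Col1a1 and Col3a1 given above also rose by the mean difference, and their part in that of Antxr1 was not tested. Of 22 tested genes of the nucleus, 2 rose (Isy1 and Eif4e3, by 0.26 and 0.44) and 3 fell. The 3 were Nup210, Lsm3 and Mcm2, a subunit of the replicative helicase, which fell by 0.51 (adjusted p = 0.00453), from 0.19 to 0.53 in young WT to -0.24 to 0.07 in young TauTKO and from 0.37 to 0.60 in old WT to -0.13 to -0.00 in old TauTKO mice. Tia1 of the nuclear list had -0.09 (adjusted p = 0.659) by the probe used here, but its other probe passed at 0.405. Of 9 tested genes of nerve and adhesion, 0 passed, at mean differences from -0.18 to 0.15.

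Among the 10 members with the smallest p outside the called pair, 2 have not been named yet. Aplf, a DNA end-joining factor at -4.13 Mb, rose by 0.51 ± 0.08 (SE, adjusted p = 0.00279), from -1.53 to -1.22 in young WT to -1.16 to -0.98 in young TauTKO and from -1.49 to -1.44 in old WT to -0.88 to -0.63 in old TauTKO mice, while its other probe had 0.20 (adjusted p = 0.103). The transcript 1600020E01Rik at -5.23 Mb fell by 0.47 ± 0.07 (SE, adjusted p = 0.0041), with every TauTKO array below every WT array of its age.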

How the data were processed

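The authors deposited, for each of 12 mice, the scanner output of Agilent Feature Extraction 10.10.1.1, whose processed intensity per spot is background-corrected but not normalized between arrays, and an intensity table of the series, of whole numbers close to the scanner's values, used as an alternative. Coordinates are those of build mm9 in the scanner files. Of 263 member probes with a RefSeq-style accession, 243 were matched to a symbol in a RefSeq gene table of GRCm38.p6, 16 to another symbol than the design's.

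Control spots and 1465 outlier spots were left out, log2 values were scaled to each array's 75th percentile, and spots of a probe were averaged (R 4.3.3, package data.table, version 1.17.8). limma 3.58.1 fitted 4 group means over the 12 arrays, with Benjamini-Hochberg adjustment over 38973 probes. The fold threshold, 1.8, is that of the study's methods, whose unpaired t-test was run as an alternative. Sets were described by counts beside those of all probes, with no test of their own. The code was tested on simulated data. The members, gene lists and named genes (members that agreed at both ages, genes within 2 Mb, the 10 next smallest p, Fbln2, Mthfd2, a muscle list and Slc6a6) were chosen with earlier results of these data known. With 3 mice a group, precision is limited. Some probes of 1 locus are not reported singly here.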

Additional observations from a re-analysis of the deposited data

How the results depend on the processing

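The 7 members called in old mice, 2 in young mice, 2 at both ages, 2 agreeing and 3 by the mean difference changed as follows. Scaling to the median gave 4 in old mice (1.03%), against 2.27% of all probes. Normexp background correction gave 2 in old mice, 1 in young mice, 1 at both ages and 1 agreeing, with 1.19%, 0.331%, 0.226% and 0.29% of all probes. The methods' t-test, unadjusted, gave 9 in old mice, 4 in young mice and 2 at both ages, with 2.52%, 1.12% and 0.564% of all probes. After Benjamini-Hochberg adjustment it gave 0, 0 and 0, with 0 over all probes too. Fitting only the 2 groups compared gave 3 in old and 1 in young mice, with 0.534% and 0.177% of all probes. At 1.5-fold there were 16 in old mice, 7 in young mice, 7 at both ages, 9 agreeing and 13 by the mean. All probes then gave 3.82%, 0.688%, 0.523%, 1.95% and 3.34%, against 4.11%, 1.8%, 1.8%, 2.31% and 3.34% of the members. A 2-fold threshold gave 3, 1, 1 and 1 for the first 4 counts, with 1.56%, 0.262%, 0.185% and 0.457% of all probes. With no fold threshold the counts were 21, 7, 7, 42 and 42, with 6.1%, 0.836%, 0.693%, 10.9% and 10.9% of all probes. Blocking on an array's row within the slide gave 1 in young mice and 1 at both ages, with 0.108% and 0.077% of all probes. So did 1 probe per gene, which left 1 agreeing, with 0.432%, 0.304% and 0.792% of all probes so chosen. Within 2 Mb, 3 of 90 (3.33%) were called in old mice, against 2.08% of all probes. The 2 probes of Fbln2 and Nup210 (2.22% of the 90) were called there in young mice and at both ages, and they agreed. The shares of all probes were 0.375%, 0.254% and 0.762%. In windows of 10 Mb the share passing for the mean difference was 14.4%. Leaving out 1 array gave 5 to 11 in old mice, 0 to 5 in young mice, 0 to 3 at both ages, 1 to 3 agreeing and 3 to 7 by the mean. The shares of all probes ran from 1.24% to 2.4%, 0.0231% to 0.493%, 0.018% to 0.336%, 0.641% to 0.813% and 1.31% to 1.76%. Without old WT replicate 3 the count was 5 in old mice, against 1.24% of all probes. Without young TauTKO replicate 1 it was 5 in young mice (1.29%) and 3 at both ages (0.771%), against 0.192% and 0.139% of all probes.

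Replicate numbers did not pair the mice. The deviations of same-numbered mice correlated at 0.00323, 0.042 and 0.317 in young and -0.14, 0.0556 and -0.0493 in old mice, and not every mouse correlated best with its own number. With the replicate number as a block, 0 members were called in young mice and 0 at both ages, with 6 in old mice, 2 agreeing and 3 by the mean. The shares of all probes were then 0%, 0%, 1.27%, 0.677% and 1.28%. Over all probes, calls in young mice went from 146 to 0 with the block, 438 by the unadjusted t-test, 69 with only 2 groups and 42 with the row as a block. Calls in old mice went from 812 to 465 with normexp, 208 with only 2 groups and 494 with the replicate block. The t-test gives no agreeing or mean value, and the fit of 2 groups gives none that spans both ages. Of 1714 mean differences of 75 named probes under the alternatives, 1662 kept their side of the threshold, with their direction where they passed, 31 no longer passed, 19 newly passed, 2 that had not passed moved by more than the spread between mice, and 0 that passed reversed. For the 12 probes described at each age, 27 of 275 old and 38 of 275 young differences no longer passed, 6 and 3 newly passed, 1 and 1 moved by more than that spread, and 0 that passed reversed.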

Other observations

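The members that passed for the mean difference were, like those of the whole array, mostly probes with a high signal. When all tested probes were ordered by mean level, 24 of the 123 members in the top tercile passed (19.5%, against 16.8% of all probes there), 13 of 119 in the middle one (10.9%, against 11.4%) and 5 of 147 in the bottom one (3.4%, against 4.61%). Transcripts that the array names only by their position, mostly noncoding, passed in 7 of 132 members (5.3%, against 6.07% over the array), and other members in 35 of 257 (13.6%, against 12.5%). On the reverse strand 29 of 214 members passed (13.6%, against 11.2%) and on the forward strand 13 of 175 (7.43%, against 10.7%); 6 of the 29 belong to the 2610306M01Rik locus.

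Of the 17 members with an unadjusted p under 0.05 for a difference between the ages, Lmod3, which helps build the thin filaments of muscle, had 0.04 in young and -0.26 in old mice (adjusted p = 0.918), and Shq1, a factor of ribonucleoprotein assembly, had -0.01 and 0.88 (adjusted p = 0.89). No member was apart at both ages in opposite directions (0 of 389, against 0.277% of all tested probes).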
